A study of Mus musculus with 28 samples.

Results

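Tau-treated and untreated primary microglia of APOE3 mice were compared in the 6 libraries of the series' second title series, the libraries whose titles lack the letters SAN, out of 28 libraries in all. The tau group held libraries 4, 5 and 6 and the untreated group libraries 1, 2 and 3, numbered as in their titles. All cells were cultured microglia, the resident macrophages of the brain, from APOE3 mice, whose genotype label reads WT. Their treatment labels read Tau and Control, and Control is called untreated here because the study's design names it as cells given nothing. Beside them stand 6 APOE3 libraries of the SAN title series (3 tau, 3 untreated) and 5 libraries of the second title series from mice homozygous for the Christchurch variant of APOE3, written APOE3S/S (3 tau, 2 untreated). The labels give neither the form, dose and duration of the tau treatment nor the animals' age and sex, and they do not say how the APOE alleles were made. They also do not say whether libraries came from separate cultures or animals, so p-values measure the spread between these libraries, which may be technical.

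RNA was read from the 3′ ends of transcripts, and levels are given in CPM, the share of a library's counts scaled to 1e6, and M stands for 1e6. The 6 libraries held 16.0 to 26.5 M counts and between 17299 and 19467 detected genes. Per-library values follow the title numbers, 4 to 6 for tau and 1 to 3 for untreated libraries. Errors after log2 fold changes are standard errors worked back from the F statistic of edgeR's test (n = 3 each, fewer for untreated APOE3S/S). Microglial markers summed to 10090 to 11850 CPM in tau libraries and 10460 to 11830 CPM in untreated libraries. All 18 of them had counts, although Siglech was at or near 0 and Tmem119, a marker of microglia in the brain, had only 2.89 to 4.01 CPM with tau and 2.32 to 3.94 CPM without. Markers of border-associated macrophages and monocytes summed to 2824 to 3054 CPM with tau, above the 2344 to 2730 CPM without. Pf4 alone gave 1875 to 1994 CPM of that sum with tau and 1499 to 1783 CPM without, and Ly6c2, Vcan, Cd163 and Clec4e of that list were called higher, while Lyve1 and Plac8 were at or near 0. No tag count tests the APOE genotype itself. The first principal component of the 6 libraries separated tau from untreated libraries, and the second set untreated library 1 apart.

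Microglia exposed to protein aggregates can respond through several linked programmes. DNA in the cytosol is bound by cGAS, whose cyclic dinucleotide product activates STING, and STING signalling leads to transcription of interferon-β. Interferons bind receptors at the cell surface, and the transcription factors activated there switch on interferon-stimulated genes at a DNA element called the interferon-stimulated response element. A separate programme, the disease-associated state, is driven in part by the lipid receptor TREM2 and includes genes of lipid uptake and lysosomal degradation.

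Tau was followed by a change in 552 of the 13306 genes tested, or 4.15%, by edgeR's quasi-likelihood test at an adjusted p under 0.05. Of these, 401 (3.01%) were higher with tau and 151 (1.13%) lower. The rises were larger than the falls: 143 genes rose and 7 fell at least 2-fold, and the median log2 fold change was 0.82 among genes that rose, −0.54 among genes that fell and −0.01 over all genes tested. Interferon-stimulated genes made up the largest group of rises, with 76 of 83 tested members called. Cytokines, NF-κB targets, MS4A and Ly6 surface proteins, a set of matrix proteins and the arginine-handling enzymes also had members that rose, and disease-associated, homeostatic and DNA replication genes had members that fell. Library identity mattered to the count of calls, which was 114 (91 higher, 23 lower) without tau library 6 and 121 (97 higher, 24 lower) without untreated library 2. It was 312 without tau library 4 and 225 without untreated library 3. In all, 98 genes stayed called whichever single library was left out, 77 of them higher with tau and 21 lower.

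**Figure D1:**
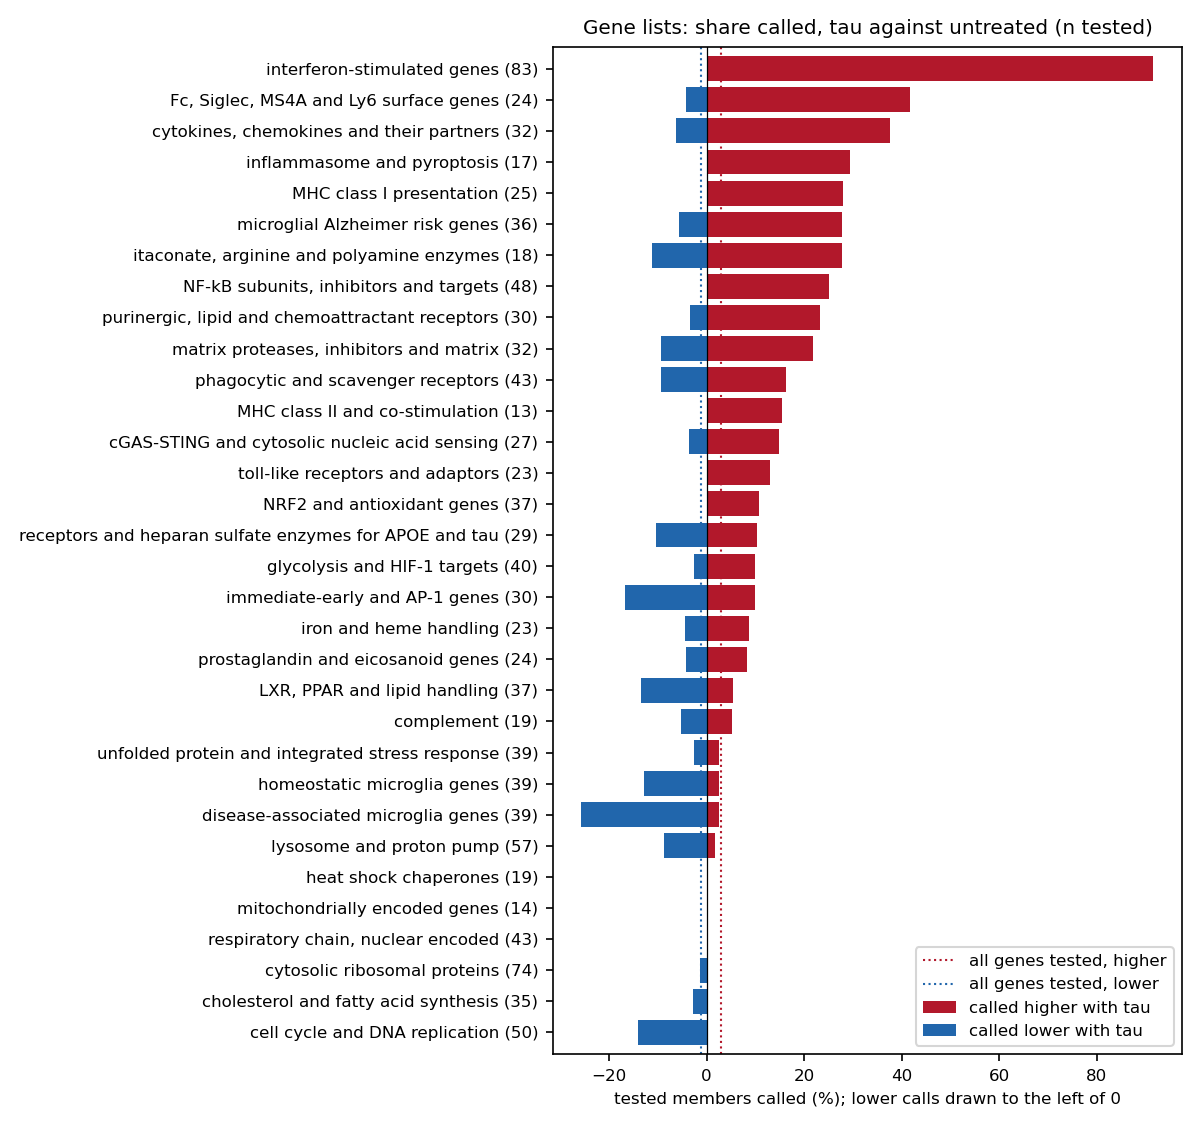
Share of tested members called in each of 32 gene lists, tau against untreated APOE3 microglia (x axis, %), with genes called higher drawn to the right of 0 and genes called lower to the left. Dotted lines mark 3.01% and 1.13%, the shares over all 13306 genes tested, and interferon-stimulated genes stand farthest to the right.

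Interferon-stimulated genes rose as a block. With tau, 76 of the 83 tested were higher and none lower, all 83 had a positive log2 fold change, and their median was 1.04. In 80 of the 83 the tau libraries all lay above the untreated ones, against 9.74% of all genes tested. The stretches shown belong to the 4 named members of the list with the highest log2 fold changes among those with the letters of the response element before the start site, so that their rise can be read beside the letters. The sequences are RefSeq promoter stretches on GRCm38, 5′ to 3′ in the direction of the gene, and capitals mark the core of the interferon-stimulated response element, GAAA, any 2 bases and GAAA again, or its reverse complement, TTTC on both sides of the 2 bases.

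Cxcl10, chr5:92349040-92349139, strand minus: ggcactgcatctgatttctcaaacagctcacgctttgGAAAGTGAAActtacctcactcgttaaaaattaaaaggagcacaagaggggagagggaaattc
Ifit1bl1, chr19:34602018-34602117, strand minus: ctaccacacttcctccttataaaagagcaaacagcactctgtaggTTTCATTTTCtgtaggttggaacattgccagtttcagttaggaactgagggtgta
Ifit3b, chr19:34607724-34607823, strand plus: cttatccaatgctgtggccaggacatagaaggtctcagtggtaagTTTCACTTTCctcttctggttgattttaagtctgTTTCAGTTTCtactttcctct
Isg15, chr4:156200842-156200941, strand minus: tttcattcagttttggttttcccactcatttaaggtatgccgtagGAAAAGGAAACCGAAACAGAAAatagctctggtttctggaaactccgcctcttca

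The element's letters, searched on both strands in the 300 bases around each start site, were present in 20.2% of the promoters of genes that rose (63 of 312 with a sequence), 3.48% of genes that fell and 4.05% of all genes tested. They were present in 57.1% of the interferon-stimulated genes and in 11.4% of the genes that rose and are not on that list. The κB letters, GGGA, any 2 bases and TTCC, were found in 5.45% of the promoters of genes that rose, in 0 of 115 promoters of genes that fell and in 1.79% of all. The antioxidant element's letters, TGAC, any 3 bases and GC, were found in 15.1%, 21.7% and 17.0% of the same sets. The Isg15 stretch holds 3 overlapping copies and the Ifit3b stretch 2 separate ones. A match is a run of letters and not a measured binding site.

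Cxcl10, a chemokine that draws T cells and a classical interferon target (chr5:92346638-92348889), had 36.3, 4.91 and 20.8 CPM in tau libraries, against 0.881, 3.13 and 3.63 CPM in untreated libraries. Every tau library was above every untreated one, but tau library 5 came close to them. Its log2 fold change was 3.06 ± 0.62 (edgeR, adjusted p = 0.018). Isg15, a ubiquitin-like modifier (chr4:156199424-156200818), had 227, 75.1 and 153 CPM with tau, against 36.8, 52.8 and 54.7 CPM without. This is a log2 fold change of 1.68 ± 0.32 (edgeR, adjusted p = 0.0132), again with tau library 5 the lowest of its group. Irf7, the transcription factor that amplifies interferon production (chr7:141262706-141266481), had 677, 304 and 452 CPM in tau libraries and 183, 212 and 162 CPM in untreated libraries. Its rise was 1.39 ± 0.23 (edgeR, adjusted p = 0.00839) and was called whichever library was left out.

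Among the antiviral effectors, Oasl1, an inhibitor of Irf7 translation, had 61.6, 21.1 and 38.8 CPM with tau, against 7.00, 9.62 and 8.39 CPM without (2.30 ± 0.32). Ifit1bl1, of the IFIT family that binds foreign RNA, had 76.3, 18.6 and 43.6 CPM in tau libraries and 5.91, 8.30 and 8.96 CPM in untreated libraries (2.61 ± 0.41). The Schlafen gene Slfn4 reached 26.0, 8.73 and 20.9 CPM with tau, against 2.70, 2.76 and 1.88 CPM without (2.94 ± 0.36). In each of these 3 genes the groups did not overlap and tau library 4 was the highest. Zbp1, a sensor of left-handed nucleic acids that can start cell death, rose by 1.43 ± 0.21 on the log2 scale, and Ifi213, of the interferon-inducible p200 family, by 1.37 ± 0.18. Ccl5, a T-cell chemokine, had 125, 25.0 and 54.9 CPM with tau, against 11.5, 14.3 and 7.89 CPM without (2.62 ± 0.46, edgeR, adjusted p = 0.0103). The GTPase gene Gbp4 (1.49 ± 0.34) and Ifit3b (2.18 ± 0.45) also rose, as did the GTPase gene Tgtp2 (2.19 ± 0.50), which is not on the list. The calls of Cxcl10 and Isg15 were kept in 3 of 6 omissions of 1 library, those of Ifit3b and Tgtp2 in 2 and that of Gbp4 in 1. The 7 members not called were Lgals9, Slfn2, Tor3a, Ly6e, Lgals3bp, Bst2 and Irf9.

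The size of the interferon rise differed between the 3 tau libraries. In all 83 tested interferon-stimulated genes tau library 5 was the lowest of the tau libraries, and in 82 of them tau library 4 was the highest. Over all 13306 genes tested, library 5 was the lowest tau library for 3812. The mean log2(CPM + 1) of the list was 7.28, 6.24 and 6.84 in tau libraries, against 5.60, 5.75 and 5.74 in untreated libraries, so the spread within the tau group was 1.04 and that within the untreated group 0.15. Library 5 was also the tau library with the fewest counts, 17.3 M against 26.0 and 22.1 M in libraries 4 and 6, and its part in the result was not tested. Without library 5 the number called was 82 of 83, without library 4 it was 61, and without untreated library 1 or 3 it was 63 or 38. Without tau library 6 it was 23 and without untreated library 2 it was 17, while the median log2 fold change stayed between 0.82 and 1.22 over the 6 omissions.

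**Figure D2:**
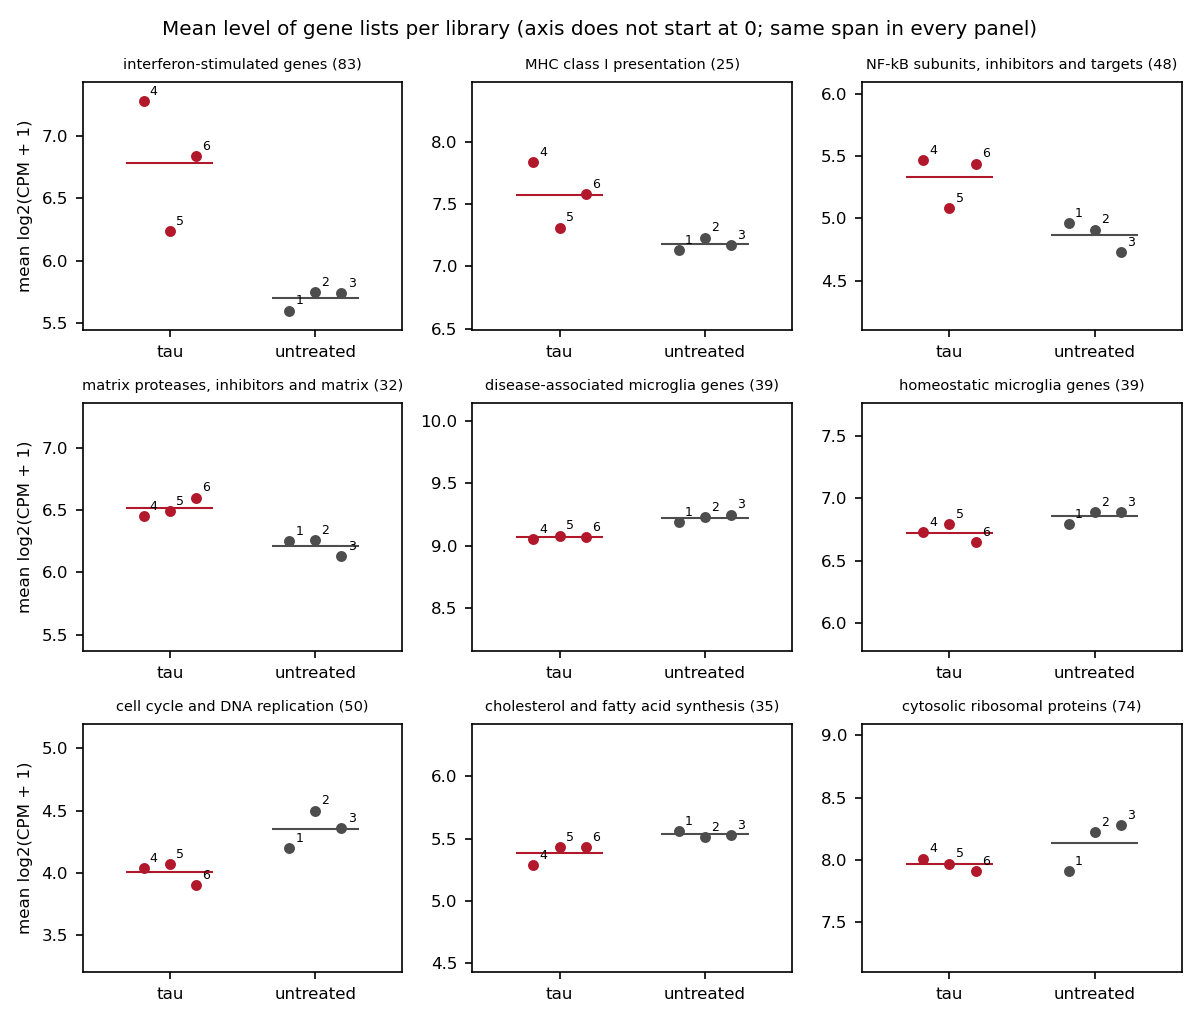
Mean log2(CPM + 1) of 9 gene lists in each library (y axis; the span is the same in every panel and does not start at 0), tau libraries 4 to 6 on the left and untreated libraries 1 to 3 on the right, with a line at the group mean. Interferon-stimulated genes reach 7.28, 6.24 and 6.84 in tau libraries and 5.60 to 5.75 in untreated ones, while cell cycle genes lie at 3.90 to 4.07 in tau libraries and 4.20 to 4.50 in untreated ones.

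Upstream of these genes, neither the gene of cGAS nor that of STING was called. Ifnb1, which encodes interferon-β (chr4:88522025-88522774), had 17, 0 and 3 counts in tau libraries and none in the untreated libraries. It was too low to be tested. Set against 3 counts in the 3 untreated libraries together, the floor for a count of 0, the pooled tau counts were at least 6.3-fold higher. That bound rests on tau library 4, which gave 17 of the 20 counts, and does not hold for each tau library. Untreated APOE3S/S library 3 had 0.714 CPM, against 0.655 CPM in APOE3 tau library 4. Mb21d1, the gene of cGAS, had 22.9, 21.2 and 18.1 CPM with tau, against 18.6, 22.9 and 14.3 CPM without (log2 fold change 0.17 ± 0.16, edgeR, adjusted p = 0.698). Tmem173, the gene of STING, had 67.8, 57.6 and 66.8 CPM with tau, against 62.1, 57.7 and 68.0 CPM without (0.05 ± 0.10, adjusted p = 0.871). In both genes the groups overlapped. Of the 27 tested genes of cytosolic nucleic acid sensing, 4 were called higher and 1 lower, against 3.01% and 1.13% of all genes, with a median log2 fold change of 0.11. Those higher were Samhd1, a nucleotide hydrolase, the RNA-editing enzyme Adar, the TBK1 adaptor Azi2 and the ubiquitin ligase Trim56. Enpp1, an ecto-enzyme that degrades the cGAS product, fell by 0.52 on the log2 scale. Genes of other nucleic acid sensors, Ddx58 (1.05), Dhx58 (1.01), Ifih1 (0.88) and Zbp1 (1.43), were called higher but are not on this list. The Ifih1 call was kept in 3 of 6 omissions and the others in all 6. The list had no higher call without tau library 4, tau library 6, untreated library 2 or untreated library 3. In the toll-like receptor list, Tlr2, the receptor for bacterial lipopeptides, rose by 1.01 ± 0.13, and Tlr3 and Cd14 also rose, 3 of 23 tested, of which 1 was left without tau library 6, untreated library 2 or untreated library 3.

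Part of the inflammatory programme rose with the interferon genes. Of 32 tested cytokine and chemokine genes 12 were higher and 2 lower, against 3.01% and 1.13% of all genes. Of 48 NF-κB subunits, inhibitors and targets 12 were higher and none lower. Il1b, the gene of interleukin-1β (chr2:129364570-129371139), had 30.2, 19.1 and 28.1 CPM in tau libraries, against 15.4, 5.28 and 3.82 CPM in untreated libraries. The groups did not overlap, and untreated library 1 was close to tau library 5 (1.69 ± 0.39, edgeR, adjusted p = 0.0324). Its antagonist Il1rn had 79.9, 77.3 and 84.8 CPM with tau, against 53.9, 48.4 and 34.7 CPM without, a rise of 0.84 ± 0.13 that was kept whichever library was left out. The neutrophil chemokine genes Cxcl2 and Cxcl3 rose by 1.13 ± 0.20 and 1.63 ± 0.34, and Ccl7, a monocyte chemokine, by 0.92 ± 0.23. Tnf, the gene of tumour necrosis factor (chr17:35199381-35202007), was not called: it had 20.5, 15.6 and 18.0 CPM with tau, against 25.1, 16.4 and 14.5 CPM without (−0.03 ± 0.19, edgeR, adjusted p = 0.966). Ccl2, the main monocyte chemoattractant, was not called either (0.36 ± 0.18, adjusted p = 0.365), with 320, 258 and 233 CPM in tau libraries and 152, 236 and 252 CPM in untreated libraries. Without tau library 6 or untreated library 2 the higher calls were 2 in each of the cytokine and NF-κB lists. Without tau library 4 they were 7 and 6, and without untreated library 3 they were 5 and 2. Without tau library 5 the NF-κB list had 21. The Il1b call was kept in 2 of 6 omissions and that of Ccl7 in 1.

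The NF-κB target Acod1, which makes itaconate, had 98.3, 14.6 and 77.1 CPM with tau, against 16.1, 14.7 and 9.15 CPM without. Tau library 5 lay within the untreated range and the other 2 tau libraries well above it, and the call (2.27 ± 0.51, edgeR, adjusted p = 0.0298) was kept in only 1 of 6 omissions. C3, the central complement component, had 1262, 598 and 956 CPM in tau libraries and 471, 389 and 359 CPM in untreated libraries (1.23 ± 0.22), the only one of 19 complement genes called higher. Ier3, an NF-κB-induced survival gene, had 59.8, 60.6 and 54.5 CPM with tau, against 31.1, 30.0 and 22.9 CPM without. It showed little spread within the tau group and rose by 1.07 ± 0.11 (edgeR, adjusted p = 0.00106). Among inflammasome and pyroptosis genes 5 of 17 rose, Il1b, Il18, Nlrc4, Gsdmd and Ninj1, and none fell, against 3.01% and 1.13% of all genes. That list had no higher call without tau library 4, tau library 6, untreated library 2 or untreated library 3.

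Some genes of antigen presentation rose as well. Of 25 MHC class I presentation genes, 7 were higher and none lower, against 3.01% and 1.13% of all genes. Tau library 5 was the lowest tau library in 24 of the 25. The higher calls were 13 without tau library 5, 3 without tau library 4, 1 without tau library 6 or untreated library 2, 2 without untreated library 3 and 4 without untreated library 1. The class I gene H2-T24 had 97.2, 57.6 and 68.6 CPM with tau, against 38.6, 38.0 and 33.8 CPM without (1.04 ± 0.17), and Nlrc5, the transactivator of class I genes, rose by 0.79 ± 0.13. Of 13 class II and co-stimulation genes, the co-stimulatory ligand Cd86 (0.64 ± 0.09) and the inhibitory ligand Cd274 (0.55 ± 0.13) were called higher. Among Fc, Siglec, MS4A and Ly6 surface genes 10 of 24 rose and Siglecf fell, with 6 rises without tau library 6 or untreated library 2. Ly6i, a GPI-anchored Ly6 protein, had 117, 24.6 and 77.2 CPM in tau libraries, against 8.55, 14.7 and 9.77 CPM in untreated libraries (2.74 ± 0.44). The 4-span membrane protein gene Ms4a4a had 141, 119 and 103 CPM with tau, against 52.2, 55.1 and 52.7 CPM without (1.20 ± 0.11, edgeR, adjusted p = 0.000627). Its neighbours Ms4a6b, Ms4a6c, Ms4a6d and Ms4a4c rose by 1.77 ± 0.20, 1.26 ± 0.21, 0.83 ± 0.12 and 2.39 ± 0.41 on the log2 scale. Siglecf, a sialic acid receptor, had 15.8, 16.9 and 14.5 CPM in tau libraries and 28.4, 35.7 and 35.3 CPM in untreated libraries, a fall of 1.06 ± 0.12 on the log2 scale.

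Genes of the MS4A, Ly6, Schlafen, GBP, IFIT and Ifi200 families lie among near-identical copies, and how reads matching several copies were counted is not given in the sources used here, so the split between such copies is uncertain. Irf7 overlaps Phrf1 on the other strand, Arg2 overlaps Vti1b and Cx3cr1 overlaps Wdr48. Whether strand was used in counting is not stated, so reads of such pairs may not be told apart. On the same strand, Gbp4 overlaps Gbp8 and Gbp9, and Cx3cr1 overlaps Gorasp1 and Csrnp1. Strand cannot separate reads that fall where these genes overlap.

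A second set of rises showed little spread between the tau libraries. Vcan, the gene of the matrix proteoglycan versican (chr13:89655312-89742509), had 50.4, 55.1 and 64.0 CPM with tau, against 11.7, 14.7 and 10.4 CPM without. This rise of 2.21 ± 0.14 shared the smallest adjusted p of all genes with Ppbp (edgeR, 3.46e-05). Ppbp, a neutrophil-attracting chemokine gene first known from platelets (chr5:90768518-90770063), had 32.9, 47.1 and 42.2 CPM in tau libraries and 7.88, 7.28 and 9.33 CPM in untreated libraries (2.33 ± 0.15). Thbs1, encoding thrombospondin-1, a matrix protein that activates TGF-β (chr2:118111876-118127133), had 2809, 3123 and 3125 CPM with tau, against 1096, 840 and 664 CPM without (1.82 ± 0.14). In none of these 3 genes was tau library 5 the lowest of its group. Versican is also on the monocyte marker list, whose other called members Ly6c2 (3.15 ± 0.79), Cd163 (1.79 ± 0.41) and Clec4e (1.58 ± 0.39) were kept in 1, 2 and 1 of 6 omissions, with overlapping groups for Ly6c2, and the part of monocytes in the Vcan value was not tested. In a bulk library fewer cells of a type and less RNA per cell cannot be told apart. Of 32 matrix and protease genes 7 rose and 3 fell, against 3.01% and 1.13% of all genes. Without tau library 6 or untreated library 2 there were 4 rises and 0 falls. Without untreated library 3 there was 1 fall, and without tau library 4 there were 2. The other rises included the membrane protease Mmp14, with 95.9, 46.8 and 95.6 CPM with tau and 35.7, 29.9 and 27.4 CPM without, and the TGF-β-induced matrix protein Tgfbi (1.24 ± 0.16), and the plasminogen activator Plau, its receptor Plaur and Spp1, which encodes osteopontin, fell.

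Both arginases rose. Arg1 (chr10:24915221-24927484), which turns arginine into ornithine and urea, had 682, 806 and 643 CPM in tau libraries, against 321, 416 and 447 CPM in untreated libraries (0.86 ± 0.13, edgeR, adjusted p = 0.00581). Arg2, the mitochondrial form, had 19.9, 24.0 and 27.0 CPM with tau, against 9.74, 9.21 and 6.77 CPM without (1.47 ± 0.16). Ass1, which remakes arginine from citrulline, had 104, 38.3 and 99.9 CPM in tau libraries and 28.4, 20.6 and 18.2 CPM in untreated libraries (1.88 ± 0.31). Nos2, which makes nitric oxide from arginine, was called at low levels of 0.751 to 3.81 CPM with tau and 0.151 to 0.622 CPM without. Together with Acod1 these were the 5 rises among 18 tested genes of itaconate, arginine and polyamine metabolism, against 2 falls, Ckb and Sms. The rises were 2 without tau library 6 or untreated library 2 and 3 without tau library 4 or untreated library 3. Nt5e, the ecto-enzyme CD73 that makes adenosine, had 4.97, 8.50 and 7.66 CPM with tau, against 2.18, 1.02 and 1.07 CPM without (2.32 ± 0.32). Of 30 purinergic, lipid and chemoattractant receptor genes 7 rose, among them the formyl peptide receptor Fpr2 (1.77 ± 0.33), and 1 fell. The rises in that list were 2 without tau library 6 or untreated library 2 and 3 without untreated library 3. Over all genes tested 3.01% rose and 1.13% fell.

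**Figure D3:**
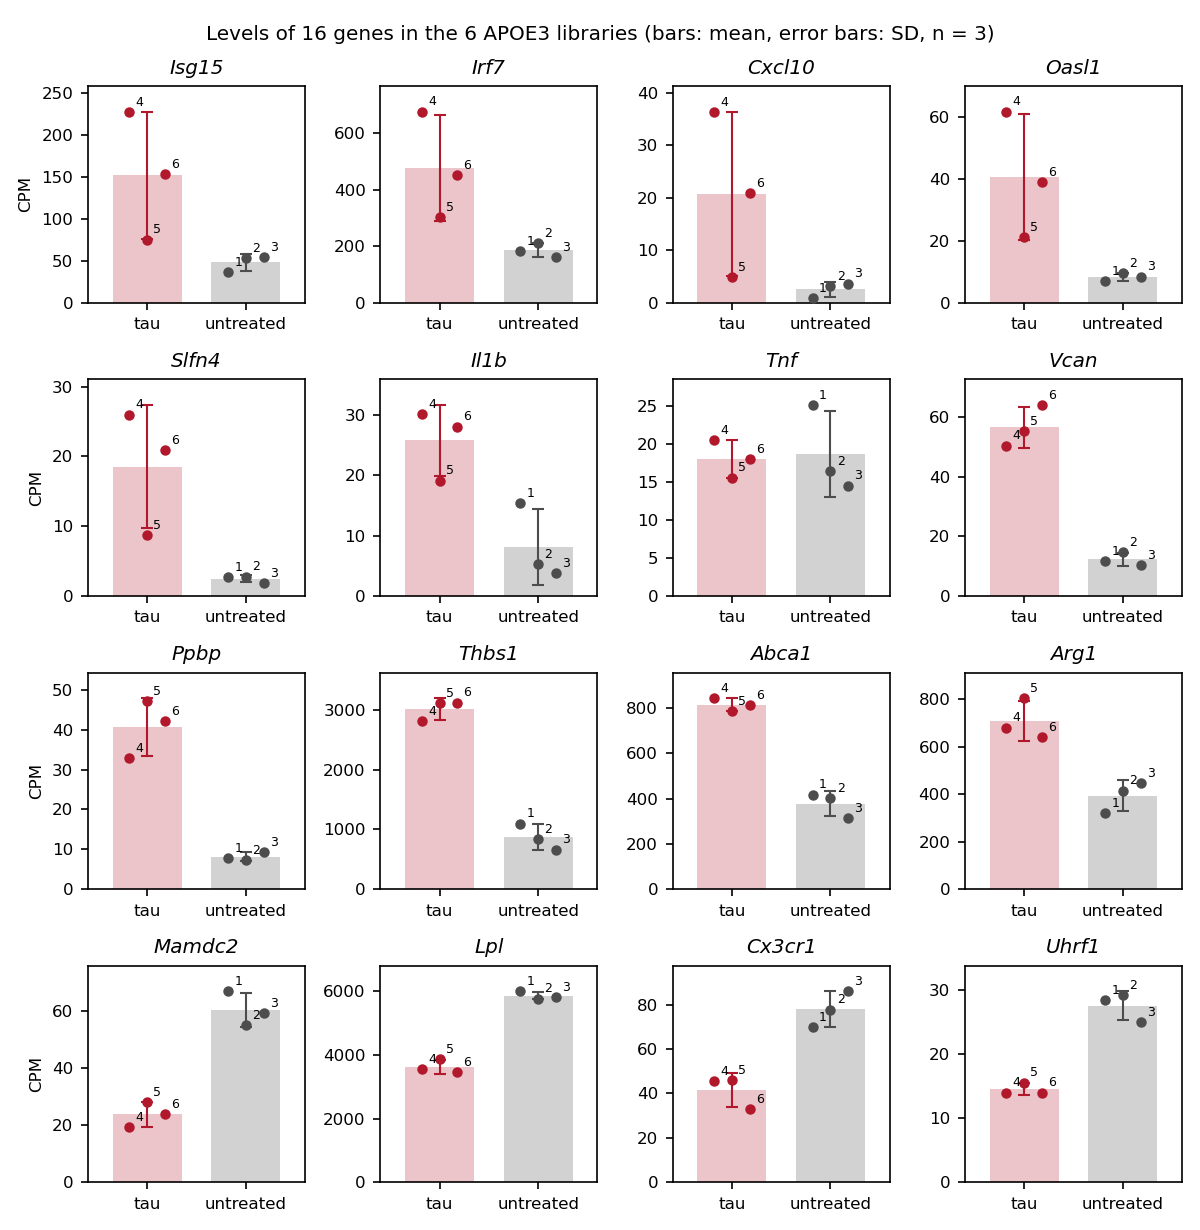
Levels of 16 genes in CPM (y axes, from 0) in tau libraries 4 to 6 (red, left) and untreated libraries 1 to 3 (grey, right), with bars at the mean and error bars of 1 SD (n = 3). The interferon genes in the top row run from low in tau library 5 to high in tau library 4, whereas Vcan, Ppbp, Thbs1 and Abca1 lie close together in the tau group, and Tnf overlaps between the groups.

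Genes that define activated microglia around plaques were called lower more often than higher. Of 39 tested disease-associated genes 1 was higher and 10 lower, against 3.01% and 1.13% of all genes. Their median log2 fold change was −0.10. The lower calls were 4 without tau library 6 or untreated library 2 and 6 without untreated library 3. Lpl, the lipoprotein lipase (chr8:68880491-68907448), had 3545, 3870 and 3452 CPM in tau libraries, against 5982, 5756 and 5809 CPM in untreated libraries (fell by 0.68 ± 0.08, edgeR, adjusted p = 0.00234). Mamdc2, a MAM-domain protein gene of the list, had 19.4, 28.2 and 23.8 CPM with tau, against 66.9, 55.1 and 59.3 CPM without, a fall of 1.34 ± 0.13. Trem2 (chr17:48346401-48354147) had 704, 737 and 713 CPM in tau libraries and 927, 992 and 1020 CPM in untreated libraries, a fall of 0.43 ± 0.08 (adjusted p = 0.0109). In these 3 genes every tau library was below every untreated one. Spp1, Itgax, which encodes CD11c, Igf1, Ank, Cd9, the potassium channel Kcnj2 and the protease gene Ctsd made up the other falls, from 0.36 to 0.88 on the log2 scale. The single rise was Hif1a, the hypoxia factor (0.74 ± 0.09). Cst7, the cystatin F gene, had 60.2, 36.9 and 51.2 CPM with tau, against 47.1, 54.5 and 43.8 CPM without, and was not called (0.05 ± 0.16, adjusted p = 0.93). Apoe tags were few, 14.6, 15.0 and 12.6 CPM in tau libraries and 12.2, 11.4 and 12.0 CPM in untreated libraries, and were not called either (0.26 ± 0.13, adjusted p = 0.365). The build named is that of the mouse, and the labels do not say how the APOE alleles were made. These tags may therefore not measure the APOE3 allele.

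Some homeostatic genes fell. Of 39 tested, 5 were lower and 1 higher, against 1.13% and 3.01% of all genes. The lower calls were 2 without tau library 6 or untreated library 2 and 3 without tau library 4 or untreated library 3. Cx3cr1, the fractalkine receptor (chr9:119901616-120069879), had 45.7, 46.1 and 32.9 CPM in tau libraries, against 69.7, 77.7 and 85.9 CPM in untreated libraries (fell by 0.89 ± 0.13, edgeR, adjusted p = 0.00597). Fcrls (0.82 ± 0.14), the transporter Slco2b1 (0.80 ± 0.20) and the prostaglandin-degrading enzyme Hpgd (0.91 ± 0.20) fell by these log2 amounts. P2ry12, the ADP receptor that guides microglial processes, went the other way, with 17.4, 19.1 and 16.7 CPM in tau libraries and 9.38, 13.7 and 11.3 CPM in untreated libraries. That rise (0.63 ± 0.15, adjusted p = 0.0391) was lost on leaving out any 1 of the 6 libraries.

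Lipid genes moved in both directions. Abca1, the cholesterol exporter that loads lipid onto APOE (chr4:53030787-53159895), had 844, 786 and 812 CPM in tau libraries, against 418, 402 and 313 CPM in untreated libraries. It rose by 1.12 ± 0.10 (edgeR, adjusted p = 0.000614), kept in all 6 omissions. Its fellow exporter gene Abcg1 was not called (0.01 ± 0.10, adjusted p = 0.98). The nuclear receptor Pparg fell by 0.83 ± 0.17 and, with Lpl, Fabp4, Scarb1 and Abhd5, made up 5 falls among 37 LXR, PPAR and lipid-handling genes, against 2 rises. Over all genes tested 1.13% fell and 3.01% rose. Of 35 cholesterol and fatty acid synthesis genes only the elongase gene Elovl5 was called, lower by 0.43 ± 0.08. Lysosomal and proton pump genes gave 1 rise and 5 falls among 57, including the pump subunit Atp6v0a1 (fell by 0.54 ± 0.10) and Tfeb, the transcription factor of lysosomal genes. In the phagocytic and scavenger receptor list 7 of 43 rose, among them the C-type lectins Clec4n (0.85 ± 0.08), Clec4d (0.58 ± 0.08) and Clec4a1, and 4 fell. These falls were of Trem2, Scarb1 and the bridging proteins Pros1 and Mfge8, which link phosphatidylserine on dying cells to their receptors. Among 29 genes of APOE or tau receptors and of heparan sulfate enzymes, the proteoglycan Agrn (0.86 ± 0.15), the sorting receptor Sorl1 (0.70 ± 0.14) and the syndecan Sdc4 rose, and Scarb1, Lair1 and Cx3cr1 fell. The tau uptake receptor Lrp1 was not called (−0.02 ± 0.11, adjusted p = 0.956). Without tau library 6 or untreated library 2 there was 1 fall each in the lipid-handling, lysosomal, phagocytic and receptor lists, with 3 phagocytic rises and no rise in the receptor list. Leaving out tau library 4 or untreated library 3 also lowered these counts of falls, to 1 to 3 in each list, and without untreated library 3 the receptor list had no rise.

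Some DNA replication genes were lower with tau. Of 50 cell cycle and replication genes 7 fell and none rose, against 1.13% and 3.01% of all genes. Among the 50, 4 had a positive log2 fold change, and the median was −0.36. In 28 of the 50 the tau libraries all lay below the untreated ones, against 11.5% of all genes tested. Uhrf1, which recruits the maintenance methyltransferase to replicated DNA (chr17:56303321-56323486), had 14.0, 15.6 and 14.0 CPM in tau libraries, against 28.4, 29.2 and 24.9 CPM in untreated libraries (fell by 0.91 ± 0.11, edgeR, adjusted p = 0.00234). The replication clamp gene Pcna had 190, 207 and 189 CPM with tau, against 244, 299 and 281 CPM without (fell by 0.48 ± 0.09). Mcm5 and Mcm7 of the replicative helicase, Rrm2 of ribonucleotide reductase, the topoisomerase Top2a and the tubulin regulator Stmn1 were the other calls. The proliferation marker Mki67 was not among them (−0.17 ± 0.11, adjusted p = 0.508). Without untreated library 1 the falls in the list were 14. Without tau library 6, untreated library 2 or untreated library 3 there was 1, and without tau library 4 there were 2.

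Among genes with at least 5 CPM on average, the deepest falls were of Asb10, which encodes an ankyrin-repeat ubiquitin ligase subunit, with 3.12, 3.99 and 1.90 CPM in tau libraries and 7.52, 8.98 and 7.64 CPM in untreated libraries (fell by 1.42 ± 0.25), and of the sialomucin gene Cd34 (fell by 1.41 ± 0.22). Mamdc2 came next, followed by the transcription factor Batf3 (fell by 1.22 ± 0.21) and Siglecf. The Ras activator Rasgrp3 (0.93 ± 0.13), the matrix protein nephronectin, Npnt (0.89 ± 0.15), and the B7 family member Cd276 (0.88 ± 0.17) fell by these log2 amounts. In all of these genes the tau libraries lay below the untreated ones.

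Among the remaining lists, immediate-early genes moved in both directions. Fos, the AP-1 subunit (chr12:85473890-85477273), had 99.4, 117 and 114 CPM in tau libraries, against 66.9, 63.4 and 55.6 CPM in untreated libraries (0.84 ± 0.09, edgeR, adjusted p = 0.00106), and Fosl2 and Ier3 rose with it. Atf3, Egr2, Myc, Jund and Bhlhe40 of the same list fell, so that 3 of 30 immediate-early and AP-1 genes were higher and 5 lower. The falls were 1 without tau library 4, tau library 6 or untreated library 2, 2 without untreated library 3 and 3 without untreated library 1, and the rises 5 without tau library 4. Of 37 NRF2 and antioxidant genes 4 rose, the quinone reductase Nqo1, Gstm2 and the peroxiredoxins Prdx5 and Prdx6. Vegfa, Hif1a, Pfkl and Hk2 were the 4 rises among 40 glycolysis and HIF-1 target genes, with Ndrg1 lower. Without tau library 6 or untreated library 2 there was 1 rise in each of these 2 lists. None of 43 nuclear-encoded respiratory chain genes, 14 mitochondrially encoded genes or 19 heat shock chaperones was called. Of 74 ribosomal protein genes only Rpl10a was called, lower by 0.39 ± 0.09, but without untreated library 1 there were 21 falls. Iron and heme genes gave 2 rises, of the mitochondrial iron importer Slc25a37 and the haemoglobin scavenger Cd163, and 1 fall, of the iron exporter Slc40a1, among 23. The stress response list gave Pdia4 (0.41 ± 0.08) higher and Atf3 lower among 39. In the eicosanoid list Pla2g7 (0.86 ± 0.12) and the leukotriene receptor Cysltr1 (0.60 ± 0.12) were higher and Hpgd lower among 24. Over all genes tested 3.01% were called higher and 1.13% lower. Of 36 genes near Alzheimer's risk loci that microglia express, 10 rose, against 3.01% of all genes, including Abca1, Sorl1, Ms4a4a and Ms4a6d, and Trem2 and Blnk fell. The rises were 3 without tau library 6 or untreated library 2 and 5 without untreated library 3.

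Markers of other cells were low in all libraries. Neuronal markers summed to 2.20 to 3.44 CPM with tau and 2.49 to 3.01 CPM without, and astrocyte markers to 51.1 to 61.9 CPM with tau and 39.3 to 48.7 CPM without. Fibroblast, pericyte and endothelial markers summed to 60.7 to 82.5 CPM with tau and 71.0 to 85.9 CPM without. In that list Pecam1 (2.85 ± 0.54), Cdh5 (3.05 ± 0.60) and Kdr (1.42 ± 0.21) were higher and Flt1 lower. Cdh5 had only 0.72 to 1.16 CPM with tau and 0.10 to 0.13 CPM without. Pecam1 had 1.4 to 3.3 CPM with tau and 0.16 to 0.50 CPM without. The Cdh5 call was kept in 2 of 6 omissions and the Flt1 call in 1, while Cldn5, Rgs5 and Vtn had no counts. Oligodendrocyte lineage markers summed to 241 to 266 CPM with tau and 203 to 254 CPM without.

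Tau-treated APOE3 microglia of the SAN title series showed larger effects for most genes that differed, and the labels do not say whether the form, dose and duration of tau were the same. For 1106 of 13711 genes, or 8.07%, the tau effect differed between the series in an edgeR interaction test over 12 libraries, with 476 (3.47%) having the higher log2 fold change in the second series and 630 (4.59%) the lower. Of the 1092 tested in both series, 1027 had the smaller effect in the second. The series differ in their libraries' depth and titles, and the labels say nothing more of how they were made, so the source of the difference cannot be told apart from any other feature of the 2 sets. The interferon list showed this throughout: its median log2 fold change was 1.04 in the second series and 2.19 in SAN, where all 83 members were called higher, against 13.1% of all genes. The interaction was called for 58 of the 83, each with the smaller effect in the second series.

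Isg15 rose by 1.68 ± 0.32 in the second series and by 3.79 ± 0.33 in SAN, and the interaction was −2.11 ± 0.42 (edgeR, adjusted p = 0.00676). Its SAN tau libraries had 258, 314 and 318 CPM, and its SAN untreated libraries 22.2, 26.0 and 19.2 CPM. The second series thus had both lower tau levels and higher untreated levels of Isg15 than SAN. For Ccl2 the untreated levels differed more. Its log2 fold change was 0.36 ± 0.18 in the second series and 3.77 ± 0.30 in SAN (interaction −3.42 ± 0.38, adjusted p = 0.00016), yet its untreated level in the second series (152 to 252 CPM) was above even the tau level in SAN (26.2, 43.1 and 46.6 CPM, against 3.81, 2.92 and 2.04 CPM untreated). Cst7 (interaction −3.07 ± 0.27) and Tnf (−1.95 ± 0.32) rose in SAN and were not called in the second series. The untreated Cst7 level of the second series (43.8 to 54.5 CPM) was also above the tau level in SAN (17.9 to 21.3 CPM). The same held for Ccl7, with 41.4 to 75.9 CPM against 26.1 to 38.9 CPM. For Tnf the mean untreated levels were 18.7 CPM in the second series and 16.7 CPM in SAN. Of the cytokine list 12 of 36 genes had a called interaction below 0 and 4 one above 0, against 4.59% and 3.47% of all genes.

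For 426 of those 1092 genes the effects had opposite signs in the 2 series. Arg1 rose by 0.86 ± 0.13 in the second series and fell by 0.85 ± 0.18 in SAN (interaction 1.71 ± 0.25, edgeR, adjusted p = 0.000844). Osm, an interleukin-6 family cytokine gene, had log2 fold changes of 0.67 ± 0.10 in the second series and −0.61 ± 0.14 in SAN, and Vegfa of 0.85 ± 0.16 and −0.56 ± 0.16. Uhrf1 went the opposite way: it fell in the second series and rose by 1.49 ± 0.18 in SAN, where its tau libraries had 19.6, 23.7 and 12.9 CPM and its untreated libraries 6.31, 7.67 and 7.05 CPM. Of the 50 cell cycle and replication genes 12 rose and 4 fell in SAN, against 13.1% and 10.3% of all genes. The list's median there was 0.16, and the interaction was called below 0 for 16 and above 0 for 1, against 4.59% and 3.47% of all genes. Pcna and Stmn1 fell in both series, in SAN by 0.53 and 0.96 on the log2 scale (edgeR, adjusted p = 0.0105 and 0.0119). Fos (interaction 1.11 ± 0.13), Thbs1 (1.42 ± 0.29) and Nt5e (2.26 ± 0.63) were called in the second series and not in SAN, and for each the difference itself was called. For Vcan the effects were close, 2.21 ± 0.14 in the second series and 2.14 ± 0.26 in SAN, and the interaction was 0.07 ± 0.36 (adjusted p = 0.949). Of the 401 genes that rose in the second series, 319 were also called higher in SAN and 12 lower. Of the 151 that fell, 98 were called lower in SAN and 7 higher.

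Disease-associated genes moved in both directions in SAN. Of the 39, 23 fell there and 10 rose (against 10.3% and 13.1% of all genes). Their median log2 fold change was −0.10 in the second series and −0.57 in SAN. The interaction was called above 0 for 14 and below 0 for 6, against 3.47% and 4.59% of all genes. Trem2 fell by 0.43 ± 0.08 in the second series and by 1.35 ± 0.11 in SAN (interaction 0.91 ± 0.16, edgeR, adjusted p = 0.00281), and Spp1 by 0.52 ± 0.11 and 1.84 ± 0.15. Of 57 lysosomal genes 5 fell in the second series, against 1.13% of all genes, and 30 in SAN. For these 57 the interaction was called above 0 for 13 and below 0 for 1.

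**Figure D4:**
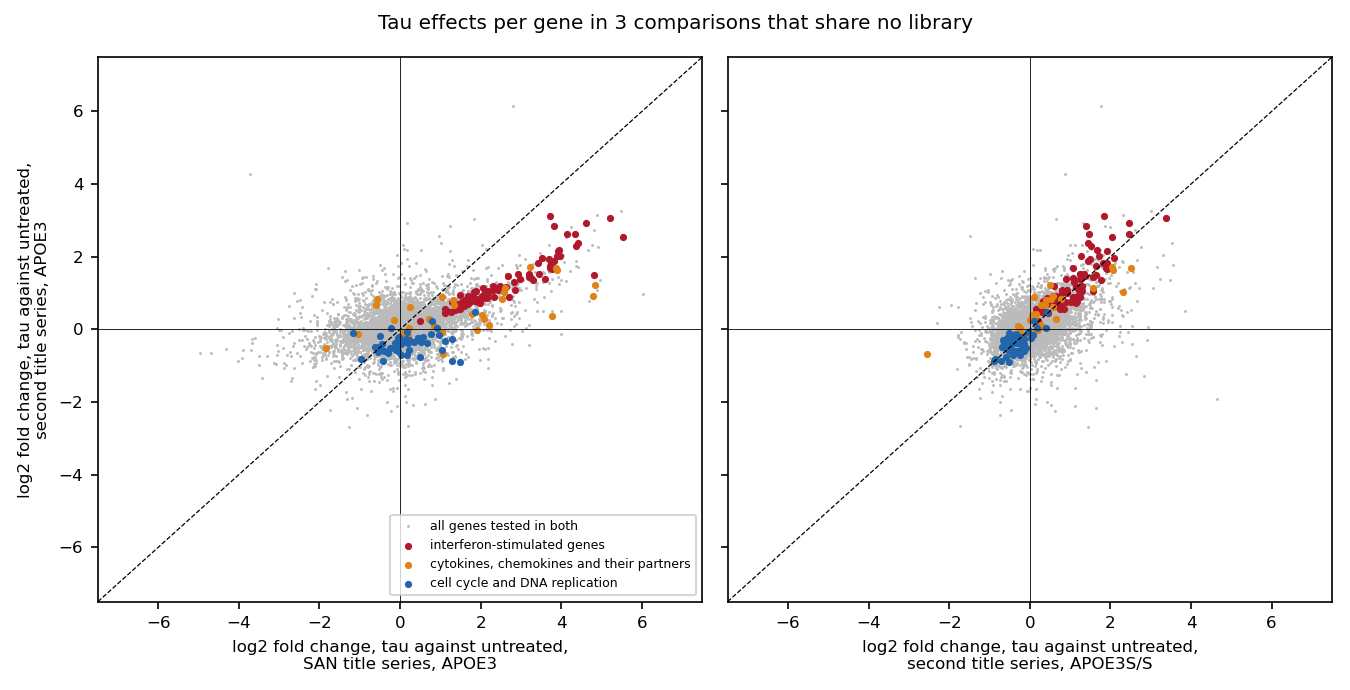
Log2 fold change of each gene with tau in APOE3, second title series (y axes), against that in the SAN title series of APOE3 (left) and in APOE3S/S of the second title series (right), with the line of equal effects dashed. Interferon-stimulated genes lie below that line on the left, where their medians are 1.04 and 2.19, and around it on the right, where they are 1.04 and 1.15, while 4 of the 50 cell cycle genes lie above 0 on the y axis and the others below.

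Within the second title series the tau effect was set against that in APOE3S/S microglia. No gene of 14586 (0.0%) passed the edgeR interaction test, in which the smallest adjusted p was 0.791, and 714 genes had an unadjusted p under 0.05. DESeq2 and limma-voom also called none. With 2 untreated APOE3S/S libraries this does not show that the genotypes act alike. The interferon median was 1.04 in APOE3 and 1.15 in APOE3S/S, where 33 of 83 were called higher, against 1.64% of all genes. Isg15 had a log2 fold change of 1.68 ± 0.32 in APOE3 and 1.06 ± 0.49 in APOE3S/S, a difference of 0.62 ± 0.63, and Cxcl10 differed by −0.32 ± 0.89. For Arg1 the effects were 0.86 ± 0.13 and 0.17 ± 0.17 (difference 0.69 ± 0.22), for Cx3cr1 −0.89 ± 0.13 and −0.11 ± 0.14 (difference −0.79 ± 0.19), and each had an adjusted p of 0.791. Of the 401 genes that rose in APOE3, 394 had the same sign in APOE3S/S and 157 were called there in that direction. Of the 151 that fell, 148 had the same sign and 39 were called, against 0.617% of all genes called lower in APOE3S/S. Untreated APOE3S/S libraries 2 and 3 were unlike, with 26.5 and 107 CPM of Isg15 and 87.0 and 406 CPM of Irf7. Cxcl10 went the other way, with 2.02 and 1.32 CPM. Leaving out either library leaves only 1 in that group, so no conclusion is drawn from the counts of called differences in those runs.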

How the data were processed

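The deposited values are the authors' table of unnormalised read counts per gene for 22 libraries, made from QuantSeq 3′ libraries per the labels' protocols. The submitters' processing notes name GRCm38 (mm10) as build and list DESeq2 1.38.3. Aligner, counting program and strand setting: not given in the sources used here. Of 60976 rows, 6360 without numbers, 25 without a gene name, 88 exact repeats, 101 further entries of a shared symbol (at most 0.218% of a library) and 3 ambiguous date-like symbols were left out. No column lacked a sample. Coordinates are from GENCODE M21 (GRCm38), and promoters are RefSeq sequences of GRCm38.p6, found for 9624 of 13306 genes.

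Counts were filtered by filterByExpr, scaled by TMM and compared by quasi-likelihood F tests in edgeR 4.0.16. P-values were adjusted by Benjamini-Hochberg across every gene in the comparison, and genes under 0.05 were called. The code was also run on data simulated from the means and spread of each fit. In the tau comparison 23 of 50 genes changed 1.5-fold and 33 of 50 changed 2-fold were recovered. At 4-fold and 8-fold these were 46 and 48 of 50. In the genotype interaction the 4 numbers were 1, 22, 44 and 42 of 50. Unchanged genes called numbered 19 and 12 in these 2 runs, a larger share of each run's calls than 0.05. The tau comparison used its own 6 libraries. The series interaction used 12 and the genotype interaction 11; tau effects in SAN and APOE3S/S come from those fits. DESeq2 1.42.0, limma 3.58.1 (voom) and other settings were alternatives. Pairs of replicates differed by 7.21 to 21.2 times their counting noise, so none was a repeated library. Errors and floors cover counting and these libraries only.

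Genes named by rule were the 12 highest and 12 lowest called changes with at least 5 CPM, the 2 smallest p-values among called genes of each of 32 lists, 12 set genes, the 6 highest and 6 lowest of each interaction and called markers. One gene that the rule named is not reported here, and it stays in all counts. Other genes named were chosen after their values were seen. The members and lists were chosen with earlier results of these data known. Per-list counts carry no test.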

Additional observations from a re-analysis of the deposited data

Results flagged for a closer look

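The response of APOE3 microglia to tau differed between the second and the SAN title series for 1106 genes by the edgeR interaction test, and the genes named here are those of them that the rule for named genes or the account above took up. Values after gene names are the log2 fold change with tau in the second series minus that in SAN, each with an adjusted p under 0.05, so a negative value means a lower log2 fold change in the second series, be it a smaller rise, a deeper fall or a fall where SAN rose.

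Interferon-stimulated and interferon-linked surface genes all had negative differences: Isg15 −2.11, Irf7 −1.60, Zbp1 −1.81, Oasl1 −2.07, Ifi213 −1.93, Gbp4 −3.33, Tgtp2 −2.48, Ms4a4c −2.02 and Ly6i −2.07. Among cytokine genes and their partners the differences were Ccl2 −3.42, Ccl7 −3.87, Ccl12 −3.62, Cxcl2 −1.47, Cxcl3 −2.26, Il1b −2.17, Il1rn −1.69, Tnf −1.95, Osm 1.27 and Vegfa 1.41. Other genes of innate sensing, antigen presentation, redox defence, itaconate, arginine and matrix handling with a negative difference were Acod1 −2.63, Ass1 −1.79, C3 −1.46, Clec4e −1.97, Clec4n −0.81, Ier3 −0.87, Ninj1 −0.61, Prdx5 −1.20, H2-T24 −1.24, Ms4a6d −0.84, Agrn −1.41, Mmp14 −2.39, Tgfbi −1.15, Acpp −1.04, Tarm1 −3.74, Mb21d1 −1.20 and Tmem173 −0.75.

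For replication genes, Batf3 and Pdia4 the differences were Uhrf1 −2.40, Rrm2 −2.16, Mcm5 −1.61, Top2a −0.88, Batf3 −1.71 and Pdia4 −0.48. Genes of the disease-associated and homeostatic states were divided: Trem2 0.91, Apoe 0.92, Spp1 1.32, Mamdc2 2.09, Kcnj2 0.64, Slco2b1 3.11, Hpgd 2.21, Cst7 −3.07 and Itgax −1.14. The Apoe tags may not measure the APOE3 allele. Genes with a higher log2 fold change in the second series also included Arg1 1.71, Thbs1 1.42, Nt5e 2.26, Tgm2 1.00, Fos 1.11, Atf3 1.11, Rassf2 0.70 and Nr4a1 3.64. The remaining genes were Atp6v0a1 0.61, Car4 −4.91, Emp1 2.51, Enpp1 1.61, Htr2b 2.94, Lama3 3.35, Plekhh2 2.61 and Rasgrp3 2.18. Car4 was too low to be tested in the second series alone, where its APOE3 levels were at most 0.376 CPM.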

How the results depend on the processing

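Of the 552 genes that changed with tau, 540 were also called by DESeq2 and 477 by limma-voom. The count was 1043 (702 higher, 341 lower) with no filter on low counts, 855 (597 higher, 258 lower) with DESeq2 and 150 when a change of at least 2-fold was also asked. RLE scaling, a 5 CPM filter, limma-voom and a spread shared over 11 or 12 libraries gave 372 to 545. With single libraries left out it ran from 114 to 719. Log2 fold changes of 4 genes that were not called crossed 0. With single libraries left out Cst7 ran from −0.14 to 0.23, Emp1 from −0.17 to 0.10, Tmem173 from −0.012 to 0.13 and Tnf from −0.17 to 0.23. With limma-voom Emp1 was −0.012 and Tnf 0.011. For these the cause was not tested. No named gene that was called changed direction under any alternative run. Of 125 named genes tested, 6 lost their call with DESeq2, 10 with limma-voom, 19 with the spread of 12 libraries and 54 each without tau library 6 and without untreated library 2.

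For the series interaction the count was 683 to 1291 with single libraries left out (683 without SAN tau library 5, 701 without SAN tau library 6) and 1583 with no filter. For the genotype interaction it was 49 with no filter and 0 to 1745 with single libraries left out, where 1745 was the count without APOE3S/S untreated library 2.

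No paired analysis was possible between tau and untreated libraries because these groups share no title number. A replicate block on title number gave 515 calls (209 higher, 306 lower) in the series interaction and 0 in the genotype interaction. Deviations of same-numbered libraries from their group means correlated at −0.34 to 0.02 between series (6 pairs) and −0.09 to 0.31 between genotypes (5 pairs), so the numbers were not taken to pair libraries.

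With 3 against 3 libraries an exact permutation test of a single gene cannot give a p below 0.1, and the calls rest on the spread that edgeR shares across genes.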

Other observations

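Of the genes that changed with tau, 231 that rose and 101 that fell were on none of the lists. The genes named here were chosen among all genes after their values were seen. Cxcl5, a neutrophil chemokine gene on chromosome 5, had 44, 17 and 42 counts in tau libraries, against 0, 1 and 0 counts in untreated libraries, an adjusted p of 0.00357 by edgeR at levels of at most 1.90 CPM. It lies beside Ppbp, Pf4, Cxcl3, Cxcl1 and Cxcl2 in a cluster of chemokine genes. Of these, Ppbp, Cxcl3 and Cxcl2 rose. Pf4, next to Ppbp, had 1875, 1994 and 1881 CPM in tau libraries and 1499, 1783 and 1727 CPM in untreated libraries, and was not called (0.21 ± 0.09, adjusted p = 0.274). Cxcl1 was not called either (1.03 ± 0.50, adjusted p = 0.359), at 1.27 to 2.45 CPM with tau and 0.491 to 1.66 CPM without.

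Tnfsf14, the TNF-family ligand LIGHT, had 11.9, 10.1 and 11.5 CPM in tau libraries, against 2.64, 3.06 and 2.38 CPM in untreated libraries (2.06 ± 0.18, edgeR, adjusted p = 0.000467). The transglutaminase gene Tgm2 had 22.7, 19.4 and 26.1 CPM with tau, against 8.40, 9.13 and 6.70 CPM without (1.50 ± 0.16), and overlaps Rprd1b on the other strand. Rnf213, a large ubiquitin ligase, had 2318, 1576 and 1978 CPM with tau, against 973, 901 and 705 CPM without (1.21 ± 0.15). Emb, which encodes the transporter partner embigin, rose by 1.10 ± 0.12, the acid phosphatase gene Acpp by 0.93 ± 0.10, the receptor gene Notch1 by 0.77 ± 0.10 and Rassf2, a Ras-association protein gene, by 0.65 ± 0.08. Pdgfb, the growth factor chain gene, had 58.7, 74.4 and 64.1 CPM in tau libraries and 110, 105 and 110 CPM in untreated libraries (fell by 0.71 ± 0.09). Arhgap25, a Rac-inactivating protein gene, fell by 0.68 ± 0.08. These genes were called whichever single library was left out, and in none did the groups overlap.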
